A study of Arabidopsis thaliana with 6 samples.

Results

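JAL23 and PYK10 encode partners of the ER-body defence complex of Arabidopsis thaliana, named after the endoplasmic reticulum (ER). The partners gather when tissue is broken. JAL23 (AT2G39330) is a jacalin-related lectin, a sugar-binding protein, and PYK10 (AT3G09260, also named BGLU23) is a beta-glucosidase of the BGLU family. Their transcripts were followed in rosettes of the mutant pmr5 and of the wild type Col-0, with 3 arrays of each genotype. Members were taken from the probe sets that the platform annotation pairs with exactly 1 gene, and among several for a gene the one to use was to be chosen by its mean signal over the 6 arrays, the highest being kept. Each gene had 1 such probe set, 266989_at for JAL23 and 259009_at for PYK10, so no choice between probe sets was made. They are 2 of 13350 genes, and 2 of 22746 probe sets tested. JAL23 was singled out because earlier results of these data showed it higher in pmr5, so its difference between the genotypes is given as a description and supports nothing.

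The pmr5 plants carried a mutation in the Col-0 background, and the labels name no allele for it. PMR5 is known from screens for resistance to powdery mildew and belongs to the DUF231 family, some members of which acetylate cell wall polysaccharides. Plants of both genotypes were left untreated, grown at 22 °C under a 14 h photoperiod, and their rosettes were collected at 3 weeks. The labels call the 3 arrays of a genotype biological replicates and do not say whether they came from separate sowings, so p-values measure only the spread between these arrays. No probe set was paired with PMR5 itself, and its transcript was not analysed here.

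ER bodies are long compartments of the endoplasmic reticulum that occur in plants of the mustard order. In Arabidopsis they are abundant in roots and seedlings, and in rosette leaves they are known to form after wounding or jasmonate. PYK10 is the main beta-glucosidase of the root ER body and splits glucosides, among them indole glucosinolates, when tissue is broken. It then gathers into large aggregates with jacalin-related lectins such as JAL23 and with lipase-like proteins, and different lectins of the family are known to have opposing effects on the size of these aggregates. The ER-body protein NAI2 is needed for the bodies to form, and the basic helix-loop-helix transcription factor NAI1 is needed for the expression of NAI2, PYK10 and several of the lectins.

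The values are log2 signals, so that 1 unit is a 2-fold difference, and all arrays shared a lowest value of 2.19, which made up from 24.9% to 26.3% of each array. The median signal of an array lay between 4.71 and 4.78 in pmr5 and between 4.68 and 4.73 in Col-0. Signals of different probe sets also depend on the probes and were not set against each other as amounts of transcript. Of the green leaf markers 3 of 6 were measured, RCA, LHCB4.1 and LHCB4.2, and they read between 14.3 and 15.2 on all 6 arrays. Of 9 root markers 2 were measured, the root hair expansins EXPA7 and EXPA18, and both were at the lowest value on all 6 arrays. In whole rosettes, fewer cells of a type and less RNA per cell cannot be told apart.

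JAL23 was low and steady in Col-0 and high and scattered in pmr5. Its log2 signals were 4.11, 4.93 and 6.73 in pmr5 replicates 1, 2 and 3, against 3.29, 3.44 and 3.29 in the Col-0 arrays. Every pmr5 array was above every Col-0 array, and the highest was pmr5 replicate 3. Col-0 replicates 1 and 3 held the same value to the last digit deposited. Such ties were more frequent at lower signals. Among probe sets with no array at the lowest value, at least 2 arrays were identical in 61.1% of those with a mean signal between 3 and 4, in 38.9% between 4 and 5, the range of JAL23 and PYK10, and in 5.97% above 8. Whether the tied value is a lower limit of this probe set is not known.

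The mean of JAL23 was 5.26 ± 1.34 in pmr5 and 3.34 ± 0.09 in Col-0 (SD, n = 3 each). The Col-0 mean was 1.16 log2 units above the lowest value of the table. The difference, pmr5 minus Col-0, was 1.92 log2 units (SE 0.74), which is 3.78-fold, with a 95% interval from -0.06 to 3.90. The SE and the interval take the spread to be equal in both genotypes, while these SDs were far apart. If the tied Col-0 value is a lower limit of the probe set, the fold is a lower bound. In limma the adjusted p was 1 over all probe sets. Between the lowest and the highest array the signal of JAL23 spanned 3.44 log2 units, or 10.9-fold.

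With limma, 0 of 22746 probe sets passed an adjusted p under 0.05, which is 0%, and 591 (2.6%) had an unadjusted p under 0.05. With an intensity trend and a robust prior in limma the count was also 0. JAL23 and PYK10 were therefore among genes of which none passed. JAL23 is 1 of 548 probe sets (2.41%) in which every pmr5 array was above every Col-0 array, and 1 of 49 (0.215%) in which the difference was also at least 2-fold. Nothing is read from its place in these counts, since that separation is why the gene was singled out.

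PYK10 showed another pattern, with wide variation in both genotypes and overlapping groups. Its log2 signals were 4.76, 3.28 and 5.86 in pmr5 replicates 1, 2 and 3, against 4.08, 3.43 and 5.20 in Col-0 replicates 1, 2 and 3. The highest array of each genotype was replicate 3 and the lowest was replicate 2. Within pmr5 the signal thus spanned 2.58 log2 units, which was also the span over all 6 arrays.

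The mean of PYK10 was 4.63 ± 1.296 in pmr5 and 4.24 ± 0.90 in Col-0 (SD, n = 3 each). The difference of 0.39 log2 units (SE 0.87) was smaller than the spread between replicates, with a 95% interval from -1.93 to 2.71 (adjusted p = 1 in limma). That interval leaves room for a level several-fold higher or lower in pmr5. The sign of the difference rested on single arrays: it was -0.22 without pmr5 replicate 3 and -0.008 when Col-0 replicate 2 was left out. Leaving out pmr5 replicate 2 gave 1.07. For JAL23 the difference stayed above 0 with each array left out in turn, between 1.18 without pmr5 replicate 3 and 2.49 without pmr5 replicate 1. That sign is fixed by the groups not overlapping and is no sign of stability.

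**Figure D1:**
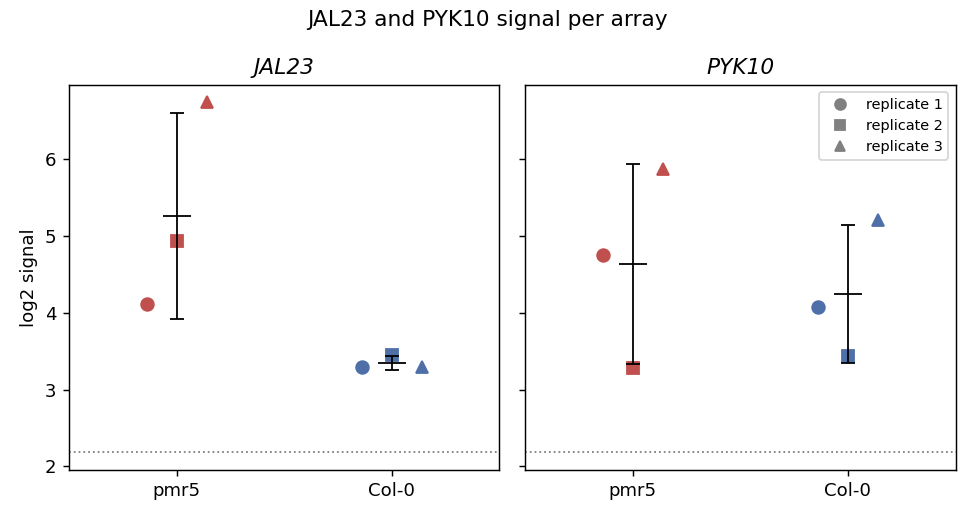
Log2 signal (vertical axis) of JAL23 and PYK10 on each array, with pmr5 on the left and Col-0 on the right of each panel. Marker shapes give the replicate number, the black bars the mean and SD of 3 arrays, and the dotted line the lowest value of the table, 2.19. The Col-0 arrays of JAL23 lie between 3.29 and 3.44, below all pmr5 arrays, while the PYK10 arrays of both genotypes overlap.

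Both genes varied widely between replicate rosettes of 1 genotype. The SD within genotypes, pooled over pmr5 and Col-0, was 0.95 log2 units for JAL23 and 1.11 for PYK10. Among the 16188 probe sets above the lowest value on all arrays the median was 0.23, with 2.82% at or above the value of JAL23 and 1.60% at or above that of PYK10. Among the 1508 probe sets with a mean signal between 4 and 5 the median was 0.28, and there 62 were as variable as JAL23 or more and 43 as variable as PYK10 or more. In JAL23 the spread came from the pmr5 arrays, with an SD of 1.34 against 0.09 in Col-0, and in PYK10 from both genotypes. The small SD of JAL23 in Col-0 includes the tied value of replicates 1 and 3.

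Across the 6 arrays JAL23 and PYK10 went together only in part. Their Pearson r was 0.45 (exact permutation p = 0.394, 2-sided) and their Spearman rho 0.087 (exact permutation p = 0.861, 2-sided). Both genes were highest on pmr5 replicate 3. On pmr5 replicate 2, however, JAL23 had its second highest signal and PYK10 its lowest, and on Col-0 replicate 3 PYK10 had its second highest signal while JAL23 was at its lowest value. Without the 2 arrays farthest from the median of PYK10, pmr5 replicates 2 and 3, r was 0.19. It was -0.44 without pmr5 replicate 3 alone, so the positive value rests on that array. With the genotype means removed r was 0.47, given with no test. JAL23 ranked 268 of 996 genes in likeness to PYK10 by Pearson r, and PYK10 ranked 206 of 996 in likeness to JAL23. With the genotype means removed these places were 267 and 93.

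The 996 genes of that ranking were those with 1 gene name, above the lowest value on all 6 arrays and with an SD over the arrays of at least 0.5 log2 units. The gene most like JAL23 among them was NAI2, the ER-body protein, with r = 0.96. With the genotype means removed NAI2 had r = 0.93 and was in place 3. JAL23 varied little in Col-0 (SD 0.09), so its r values with those means removed rest mainly on the pmr5 arrays. The log2 signals of NAI2 were 2.81, 3.33 and 4.49 in pmr5 replicates 1, 2 and 3, against 2.31, 2.31 and 2.85 in Col-0 replicates 1, 2 and 3. The pmr5 arrays of NAI2 stood in the same order as those of JAL23. The Col-0 arrays did not: JAL23 was highest there on replicate 2 and NAI2 on replicate 3. Col-0 replicates 1 and 2 had 1 identical value of NAI2 close to the lowest of the table, and Col-0 replicate 3 was above pmr5 replicate 1, so the genotypes overlapped. NAI2 averaged 3.54 ± 0.86 in pmr5 and 2.49 ± 0.31 in Col-0 (SD, n = 3 each), a difference of 1.05 (SE 0.50, adjusted p = 1 in limma). The correlation of JAL23 with NAI2 was between 0.83, without pmr5 replicate 3, and 0.999, with Col-0 replicate 3 left out.

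The next 5 genes in likeness to JAL23 were AT3G28220 with r = 0.94, M17 with 0.93, WRKY22 with 0.903, AT1G14890 with 0.901 and AT3G56880 with 0.898. With the genotype means removed these values were 0.84 for AT3G28220, 0.89 for M17, 0.73 for WRKY22, 0.77 for AT1G14890 and 0.78 for AT3G56880, each lower than with the means kept. M17 encodes a late embryogenesis abundant protein, and its log2 signals were 2.47, 3.98 and 4.99 in pmr5 replicates 1, 2 and 3, against 2.28, 2.31 and 2.98 in Col-0 replicates 1, 2 and 3. As in NAI2, Col-0 replicate 3 lay above pmr5 replicate 1 and the genotypes overlapped. WRKY22, for a transcription factor of the response to microbial patterns, read 4.86, 5.82 and 6.22 in pmr5 replicates 1, 2 and 3, against 3.42, 3.85 and 4.41 in Col-0 replicates 1, 2 and 3. In WRKY22 the pmr5 arrays again stood in the order of JAL23, as in M17, AT3G28220 and AT3G56880 but not in AT1G14890. Nothing is read from that order, in NAI2 as well, since an r with JAL23 favours it. In WRKY22 the genotypes did not overlap. Nor did they in AT3G28220 and AT1G14890. Over all probe sets 2.41% were higher in pmr5 without overlap. Nothing is read from these separations, since an r with JAL23 favours genes that separate the genotypes. At the other end were AT1G12080 with r = -0.90, AT1G59710 with -0.87 and AT2G36885 with -0.81. With the genotype means removed they had -0.81, -0.61 and -0.49. In each of the 3 every pmr5 array was below every Col-0 array, as in 2.25% of all probe sets, and nothing is read from that either, for the same reason. Over all 996 genes the median r with JAL23 was 0.14, and 5 genes (0.502%) reached 0.9. The ranking ran over many genes and only 6 arrays, and no p is given for these likenesses.

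Of the 6 genes nearest to PYK10, 0 were among the 6 nearest to JAL23. They were led by AT3G05640 with r = 0.96, AT1G02660 with 0.92 and AT4G17470 with 0.92. AT3G53990 followed with 0.92, AT2G32150 with 0.91 and, in place 6 of 996, the lectin gene JAL34 with 0.89. With the genotype means removed JAL34 was in place 2 of 996, with r = 0.98. The log2 signals of JAL34 were 7.05, 6.27 and 8.29 in pmr5 replicates 1, 2 and 3, against 5.80, 5.28 and 6.94 in Col-0 replicates 1, 2 and 3. In both genotypes replicate 3 was highest and replicate 2 lowest, which is the order of PYK10, and the genotypes overlapped. AT3G05640, AT3G53990 and AT2G32150 had that order too, and AT1G02660 and AT4G17470 did not. Nothing is read from a shared order, since an r with PYK10 favours it. JAL34 averaged 7.20 ± 1.02 in pmr5 and 6.01 ± 0.85 in Col-0 (SD, n = 3 each), a difference of 1.20 (SE 0.73, adjusted p = 1 in limma). The correlation of PYK10 with JAL34 was between 0.77, without pmr5 replicate 3, and 0.97, without pmr5 replicate 2.

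AT4G02630 with r = -0.94, AT5G51770 with -0.90 and AT4G34560 with -0.84 were the genes least like PYK10. Of the 996 genes, 5 (0.502%) had an r of at least 0.9 with PYK10 and the median was 0.17. JAL23 with JAL34 had r = 0.75, in place 34 of 996, and 0.55, in place 61, with the genotype means removed. It was 0.23 without pmr5 replicate 3. PYK10 with NAI2 had r = 0.60, in place 159 of 996, and 0.65, in place 123, with the genotype means removed. It was -0.01 without pmr5 replicate 3.

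**Figure D2:**
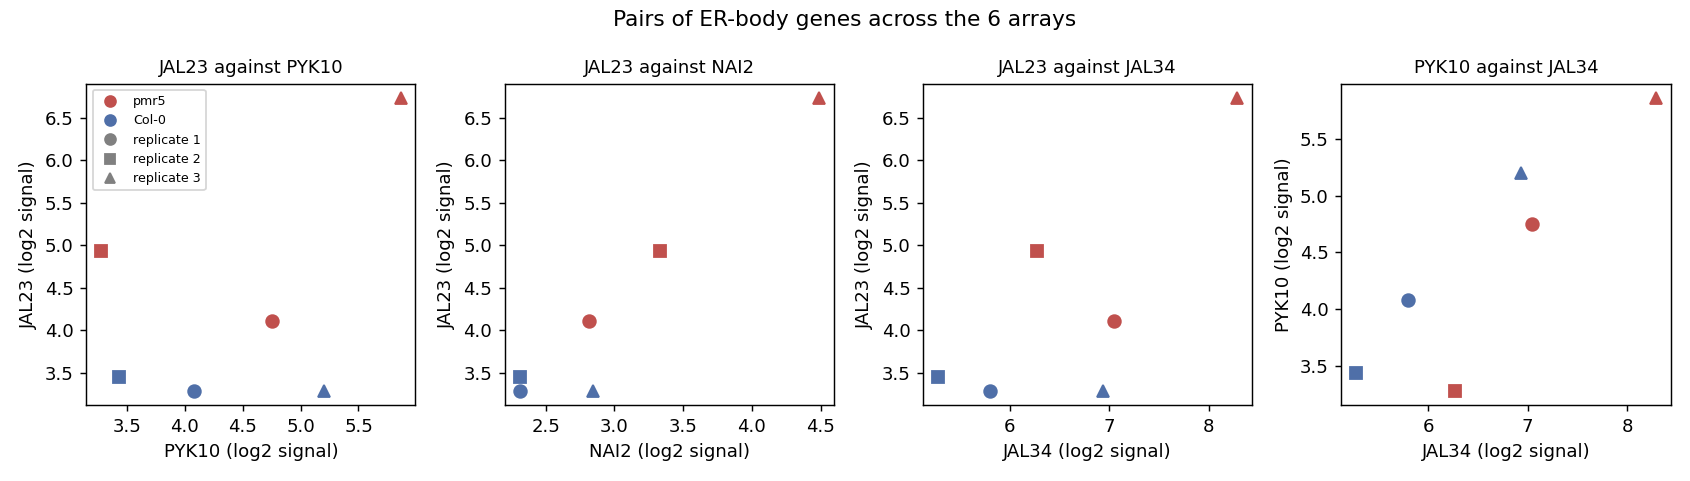
Log2 signals of JAL23 against PYK10, NAI2 and JAL34, and of PYK10 against JAL34, with 1 point for each of the 6 arrays. Colours give the genotype (pmr5 red, Col-0 blue) and shapes the replicate number. The points of JAL23 with NAI2 (r = 0.96) and of PYK10 with JAL34 (r = 0.89) lie close to a line, while those of JAL23 with PYK10 (r = 0.45) do not, and pmr5 replicate 3 is at the top right of every panel.

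JAL23, PYK10, NAI2 and JAL34 were all highest on pmr5 replicate 3, as were 22.8% of the 997 genes that vary by at least 0.5 log2 units, JAL23 and PYK10 included. PYK10, NAI2 and JAL34 had replicate 3 as the highest array in both genotypes, as had 21.5% of the 997. The 3' minus 5' signal of control transcripts (actin, GAPDH, ubiquitin), averaged as a sign of RNA integrity, was 3.09, 3.29 and 3.09 log2 units in pmr5 replicates 1, 2 and 3, against 3.30, 3.19 and 3.17 in Col-0 replicates 1, 2 and 3. A second set of control probe sets for the same transcripts gave 0.95, 1.11 and 0.84 in pmr5 replicates 1, 2 and 3, against 0.94, 0.90 and 1.10 in Col-0 replicates 1, 2 and 3, so the size of this measure depends on the probe sets used. In pmr5 both sets were highest on replicate 2, where PYK10 and JAL34 were lowest. The second set was lowest on replicate 3, where JAL23, PYK10 and JAL34 were highest, while the first read 3.09 on both replicates 1 and 3. In Col-0 the first set was highest on replicate 1 and the second on replicate 3, where PYK10 and JAL34 were highest. The part of RNA integrity in their spread was not tested.

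The wider ER-body list held 20 genes for ER-body glucosidases, lectins, lipase-like proteins and the proteins that build the bodies, of which 8 were measured. Beside JAL23, PYK10, NAI2 and JAL34 these were the lectin genes JAL22 and JAL33, the regulator gene NAI1 and BGLU19, a relative of PYK10. In limma 0 of the 8 passed, against 0% of all probe sets. The groups did not overlap in JAL23, which was singled out for that, and in 0 of the other 7, against 4.66% of all probe sets in either direction. Differences were above 0 for 4 genes and below 0 for 4, with a median of 0.19 log2 units, and the median over all probe sets was 0. The 4 above 0 were JAL23, JAL34, NAI2 and PYK10. Without JAL23 the median was -0.02, with 3 above and 4 below 0, and without JAL23 and PYK10 it was -0.04, with 2 above and 4 below 0. The median was -0.05 when pmr5 replicate 3 was left out and -0.02 when Col-0 replicate 2 was.

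The 4 genes below 0 stayed within 0.55 log2 units of the lowest value of the table on every array, where a lower level in pmr5 could hardly show. JAL22 lies beside JAL23 on the chromosome, with 1 annotated gene, AT2G39320, between them. Its log2 signals were 2.40, 2.40 and 2.58 in pmr5 replicates 1, 2 and 3, against 2.41, 2.40 and 2.73 in Col-0 replicates 1, 2 and 3, a difference of -0.05 (SE 0.12). The signal of JAL22 thus stayed near the lowest value in both genotypes, and its pmr5 arrays lay within the range of its Col-0 arrays. JAL33 is the immediate neighbour of JAL34 and read 2.35, 2.35 and 2.37 in pmr5 replicates 1, 2 and 3, against 2.35, 2.33 and 2.63 in Col-0 replicates 1, 2 and 3. The differences were -0.08 (SE 0.09) for JAL33 and -0.09 (SE 0.08) for NAI1, which held 1 identical value, 2.33, on 4 of the 6 arrays. BGLU19 was at the lowest value on 5 arrays.

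**Figure D3:**
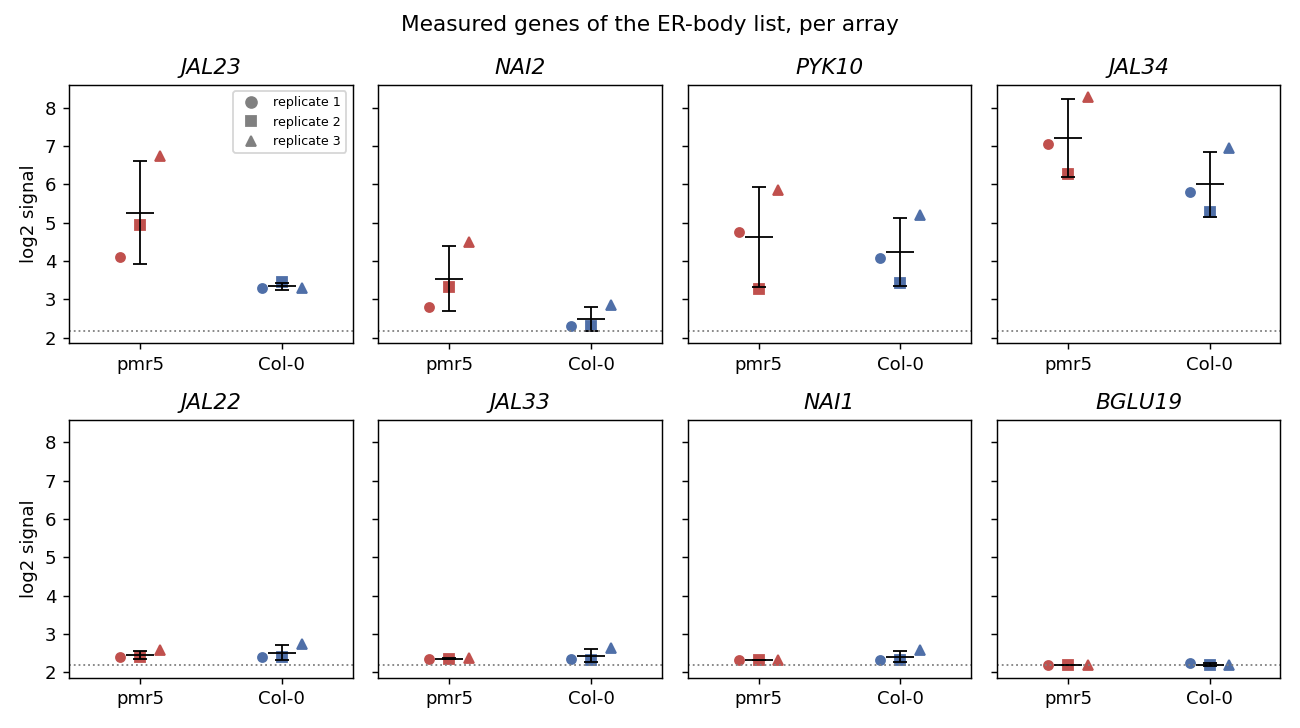
Log2 signal of the 8 measured genes of the ER-body list on each array, with pmr5 on the left and Col-0 on the right. Shapes give the replicate number, black bars the mean and SD of 3 arrays, and the dotted line the lowest value, 2.19. The upper row holds JAL23, NAI2, PYK10 and JAL34, which vary between arrays, and the lower row JAL22, JAL33, NAI1 and BGLU19, which stay at or under 2.73.

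**Figure D4:**
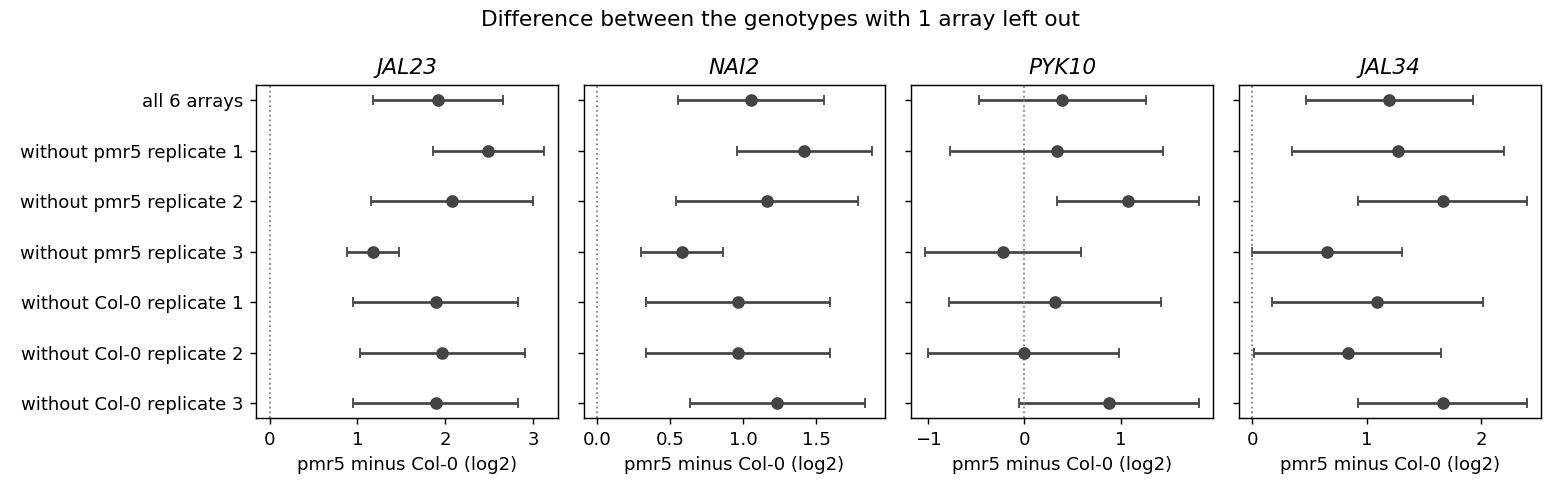
Difference of pmr5 minus Col-0 in log2 units (horizontal axis) for JAL23, NAI2, PYK10 and JAL34, over all 6 arrays and with 1 array left out at a time. Bars are the standard errors from limma. The point of JAL23 moves to 1.18 without pmr5 replicate 3, and that of PYK10 lies at or under 0 without pmr5 replicate 3 or Col-0 replicate 2.

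Leaving out pmr5 replicate 3 lowered the difference of the partner genes as well. NAI2 then had a difference of 0.58, within a range of 0.58 to 1.42 over the arrays left out in turn. JAL34 then had 0.65, within a range of 0.65 to 1.66, and 1.66 was reached when either pmr5 replicate 2 or Col-0 replicate 3 was left out.

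The BGLU family of beta-glucosidases, to which PYK10 belongs, had 21 measured genes, PYK10 included. None passed in limma (0 of 21), and in 0 of 21 the genotypes did not overlap, against 4.66% of all probe sets. The median difference of the family was 0, with 8 genes above 0, 8 below and 5 at 0. In 11 of the 21 the signal stayed under 3 log2 units on all arrays, among them BGLU41, BGLU32, BGLU43 and BGLU29, which were at the lowest value on all 6. Of the 10 that reached 3 on at least 1 array, PYK10 had the widest spread within genotypes, at 1.11 log2 units, before BGLU47 and BGLU44 with 0.91 each.

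BGLU47 ran against PYK10 across the arrays, with r = -0.81 and place 986 of 996, and r = -0.93 with the genotype means removed. BGLU47 read 3.92, 5.44 and 3.53 in pmr5 replicates 1, 2 and 3, against 6.29, 6.06 and 4.79 in Col-0 replicates 1, 2 and 3. It was lowest on replicate 3 of each genotype, where PYK10 was highest. Its difference was -1.42 (SE 0.71, adjusted p = 1 in limma), and the genotypes overlapped. BGLU44 differed by 0.66 (SE 0.71), with r = 0.34 to PYK10, and BGLU16 by 0.14 (SE 0.44), with r = 0.75 to PYK10. BGLU40 differed by -0.35 (SE 0.25), BGLU25 by 0.33 (SE 0.33), BGLU33 by 0.22 (SE 0.29) and BGLU42 by -0.05 (SE 0.30). BGLU45, for a glucosidase of lignin precursors, differed by 0.13 (SE 0.26) and BGLU15 by -0.33 (SE 0.22). Each of these differences had an adjusted p of 1 in limma.

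**Figure D5:**
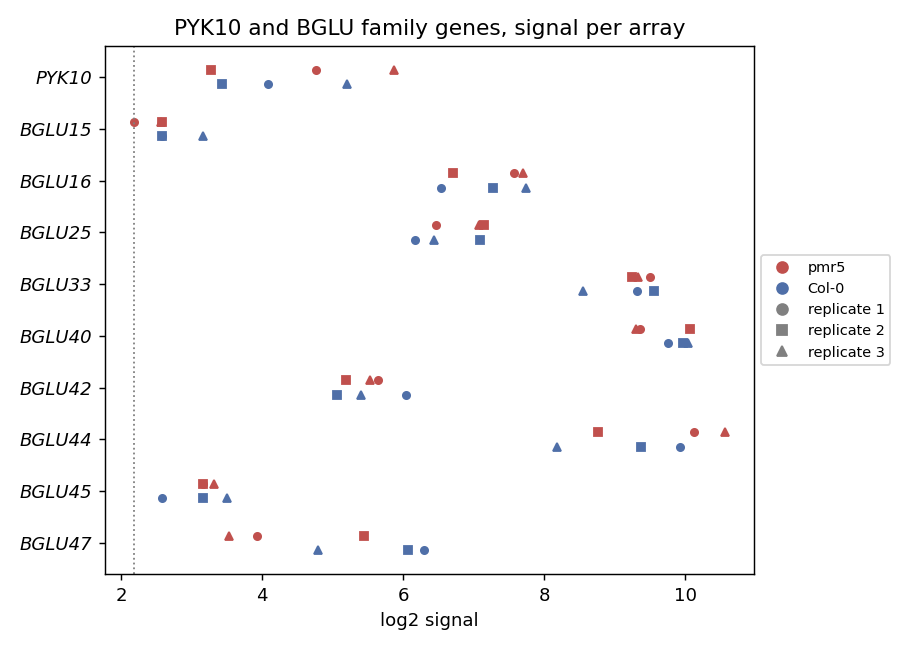
Log2 signal (horizontal axis) of PYK10 and of the BGLU family genes that reached 3 log2 units on at least 1 array, with the pmr5 arrays above the Col-0 arrays of each gene. Colours give the genotype, shapes the replicate number, and the dotted line the lowest value, 2.19. Levels are to be compared within a gene only. PYK10 spans 3.28 to 5.86, and BGLU47 has its lowest arrays where PYK10 has its highest, on replicate 3 of each genotype.

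The glucosides that PYK10 splits and the signals that bring ER bodies to leaves were hardly covered by the probe sets used. Those were the 13513 of 22746 paired with exactly 1 gene, so a gene counted as not measured need not be absent from the arrays. Of 12 genes of indole glucosinolate synthesis and use, 1 was measured, UGT74B1, which encodes the enzyme that adds the glucose. UGT74B1 averaged 9.30 in pmr5 and 9.25 in Col-0, a difference of 0.05 (SE 0.31, adjusted p = 1 in limma), so it did not follow the separation of JAL23. Of 5 genes for other thioglucosidases and myrosinase-binding proteins, 7 for the jasmonate response and 6 for ER chaperones, 0 were measured under a single gene name. Of the ER-body list 12 genes were not analysed here, among them BGLU18, BGLU21, BGLU22, PBP1, JAL31 and TSA1.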

How the data were processed

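The authors deposited 1 table of log2 signals from 1-colour Affymetrix arrays. The submitters' processing notes name RMA and the affy package, with no version. How the shared lowest value was set is not stated in those notes as used here. Per the labels' protocols, biotinylated cRNA was made from 15 µg of Trizol-extracted total RNA. Of 22810 probe sets 64 controls were left out. Names came from the platform annotation (13513 probe sets with 1 gene, 503 with several), and loci and gene order from RefSeq (TAIR10.1), which matched 13436.

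The values were fitted as pmr5 minus Col-0 with limma 3.58.1 in R 4.3.3 (lmFit, eBayes), 2-sided, with Benjamini-Hochberg adjustment over 22746 probe sets and a threshold of 0.05. SEs and 95% intervals are limma's. The limma step was tested on simulated data with normal noise and planted changes larger than the difference of JAL23. Those data had no shared lowest value and no ties, so the test does not cover low, tied probe sets. Correlations used scipy 1.17.1, and p-values of r and rho came from all pairings. The number of arrays limits the precision.

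Members and lists were chosen with earlier results of these data known. Named were JAL23, PYK10, measured genes of the ER-body, thioglucosidase, glucosinolate and jasmonate lists, JAL and BGLU genes, and for each of JAL23 and PYK10 the 6 genes most and 3 least like it. Alternatives were normalization, filters, the prior, array weights, a replicate block, linear signal and leaving out each array. Leave-one-out values of other gene pairs and of NAI2 and JAL34, and the ER-body list without JAL23 or PYK10, were added after the data were seen.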

Additional observations from a re-analysis of the deposited data

How the results depend on the processing

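At low signals values are often tied, as for JAL23 and NAI2 in Col-0, and the cause of the ties was not tested. The difference of JAL23 stayed above 0 in all 13 alternatives, from 1.18 to 2.49, and passed in none that had a test (adjusted p in limma from 0.601 to 1). With groups that do not overlap, that sign was largely fixed in advance and is no sign of stability. The filter that kept JAL23, the prior and the replicate block cannot change its difference at all. The difference of PYK10 passed in none either and reached 1.39 with array weights (adjusted p in limma from 0.623 to 1). With 1 array left out it ran from -0.22 (pmr5 replicate 3) to 1.07 (pmr5 replicate 2), and it was -0.008 with Col-0 replicate 2 left out. The filter on a mean above the median removed both genes, and neither had a second probe set to try. The count of 0 probe sets became 0 to 13 with 1 array left out, the most without pmr5 replicate 2. The correlation of JAL23 with PYK10 ran from -0.44 to 0.72 with 1 array left out and was 0.76 on linear signal (exact permutation p = 0.267). That of PYK10 with NAI2 ran from -0.014 (pmr5 replicate 3 left out) to 0.864 (pmr5 replicate 2 left out). The median of the ER-body list ran from -0.05 to 0.53 with 1 array left out. Same-numbered arrays of the genotypes had deviations correlated at 0.12, -0.28 and 0.19, so the numbers were not taken to pair them. In this balanced design a replicate block changes only the SE and leaves each difference as it was. With the block the SE was 0.72 for JAL23 (difference 1.92) and 0.25 for PYK10 (difference 0.39), and the count was 0. For JAL34 the SE was 0.10 with the block against 0.73 without it, and for NAI2 0.30 against 0.50. These values of JAL34 and NAI2 are given as a description only.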
